A study of Mus musculus with 23 samples.

Results

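Genes of DNA replication and S phase were followed in mesenteric arteries, the resistance vessels of the gut, of mice infused with angiotensin II (Ang II). The list held 38 gene symbols, among them the subunits of the replicative helicase, the DNA polymerases, the sliding clamp and its loader, the enzymes that make deoxynucleotides, and the regulators of S phase entry. Each symbol matched 1 row of the deposited table, which held 39179 genes in all. Of the 38 genes, 37 passed the filter on low values (a value of at least 1 in at least 5 libraries), as did 14896 genes of the whole table. Orc1 did not pass and is given by its reads.

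Male wild-type C57BL/6J mice, 10 to 12 weeks old, received Ang II under the skin from osmotic minipumps at 1000 ng per kg and minute, and the controls had sham surgery. Total RNA of the dissected arteries was sequenced after 7 or 14 days, in 4 groups. The sham groups had 6 libraries each, the infused group had 6 at 7 days and 5 at 14 days. Per the file headers, each library came from an animal with its own number. A value is the number of reads of a gene divided by 1 factor per library.

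Before S phase, a cell loads the ring of Mcm2 to Mcm7 onto origins of replication with the help of the origin recognition complex, Cdc6 and Cdt1. Kinases then recruit Cdc45 and the GINS complex, the ring opens into an active helicase, and polymerases copy both strands behind it. Many of these genes are transcribed late in G1, when cyclin and CDK activity releases E2F factors from the retinoblastoma proteins. Most cells of a healthy adult artery wall are quiescent, and Ang II is known as a growth stimulus for vascular smooth muscle cells and fibroblasts.

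The promoters were searched for letters bound by E2F factors, because E2F is the textbook regulator of this gene list. The letters searched were TTTCCCGC, TTTGGCGC and TTTCGCGC on either strand, which can overlap each other, in the 300 bases from 250 before to 50 after the RefSeq transcript start (GRCm38.p6). RefSeq promoter entries matched 32 of the 38 genes, and Mcm4, Ccne2, Gins1, Gins2, Gmnn and Pole had none. A match was found in 12 of the 32 genes (37.5%), against 2.76% of protein-coding genes of the table and 3.73% of the genes tested that had an entry. Related lists had shares of 35% (7 of 20 genes of cyclins, CDKs, the RB family and E2F factors), 30.3% (10 of 33 other replication factors), 26.3% (5 of 19 other S phase chromatin and nucleotide genes) and 22.2% (4 of 18 recombination and repair genes), while CDK inhibitors had 5.88% and mitosis markers 5.56%. The 12 were Mcm3, Mcm5, Mcm6, Mcm7, Orc1, Cdc6, Cdt1, Pola1, Pold1, Rfc3, Lig1 and Uhrf1. E2f1, Pcna, Tk1 and Mcm10 held no match in this window. Stretches of 160 bases from 4 genes that end at the base before the transcript start are given 5′ to 3′ on the gene's strand, with the matched letters in capitals. Mcm6 is shown because it was the gene called at both times, Mcm5 as another ring subunit with 2 overlapping matches, Pola1 as a gene with 1 match and fold changes near 0, and Mcm10 as a gene with no match and one of the larger fold changes. Mcm10 was not called at either time, rested on few reads and passed the filter only through infused libraries.
Mcm6 (chr1:128359706-128359865, minus strand): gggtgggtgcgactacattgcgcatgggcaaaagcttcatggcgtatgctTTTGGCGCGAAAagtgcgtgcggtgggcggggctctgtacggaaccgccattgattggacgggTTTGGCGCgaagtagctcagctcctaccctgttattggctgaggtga
Mcm5 (chr8:75109349-75109508, plus strand): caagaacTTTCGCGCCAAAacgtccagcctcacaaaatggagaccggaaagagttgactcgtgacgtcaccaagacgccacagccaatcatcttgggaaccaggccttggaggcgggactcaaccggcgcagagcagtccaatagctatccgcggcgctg
Pola1 (chrX:93632156-93632315, minus strand): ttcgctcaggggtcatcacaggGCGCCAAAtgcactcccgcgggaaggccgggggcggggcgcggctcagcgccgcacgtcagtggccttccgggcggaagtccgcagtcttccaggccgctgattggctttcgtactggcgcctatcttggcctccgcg
Mcm10 (chr2:5012792-5012951, minus strand): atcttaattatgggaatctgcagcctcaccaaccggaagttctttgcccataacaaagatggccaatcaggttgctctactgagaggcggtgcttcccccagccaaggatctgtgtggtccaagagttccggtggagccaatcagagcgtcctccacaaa

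The Mcm6 stretch held 3 matches, a pair that overlaps at 110 and 106 bases before the RefSeq start and another at 47 bases before it. For Mcm6 and Mcm5 this start lies upstream of the first base of the gene in GENCODE M21 (128359664 and 75109569). For 27 of the 32 genes the bases after the RefSeq start were found in a GENCODE transcript. A match is a run of letters and does not show that a factor binds there. The 11 tested genes with a match had a median log2 fold change of 0.28 at 7 days and 0.33 at 14 days. The 20 tested genes with an entry and no match had 0.13 and 0.12, and the 6 without an entry 0.31 and 0.25.

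Libraries held 4471038 to 21509283 reads, and sham at 7 days had the lowest mean depth (8898834 reads, against 18587447 for Ang II at 14 days). The 38 genes together had 794 to 7592 reads per library, so low genes rest on few reads, above all in sham at 7 days. Smooth muscle, endothelial and fibroblast markers were present in every group, and so were markers of pancreas and red blood cells. Of the 8 fibroblast markers 4 were called higher at each time, and their summed value was 3281 to 4095 in sham and 4285 to 6495 in infused libraries at 7 days, and 3917 to 4956 and 4577 to 7298 at 14 days. Of the 8 pancreatic acinar markers 7 were called lower at 14 days, with sums of 59940 to 126700 in sham and 38190 to 69290 in infused libraries. Of 7 macrophage markers 1 was called higher at 14 days, with sums of 404.5 to 574.3 in sham and 487 to 787.3 in infused libraries at 7 days and 392.3 to 576.9 and 474.4 to 870.2 at 14 days. Of 8 smooth muscle markers 1 was called higher at 14 days, with overlapping sums at both times. Lists of endothelium, T cells, B cells, gut epithelium, red blood cells, fat and mesothelium had no call by limma, and Cdx1 of the gut list was the 1 marker at 0 in all libraries. The share of reads of AY036118, an abundant noncoding RNA, ranged from 0.0431% to 36.2% between libraries. At 7 days it was 0.113% to 36.2% in sham and 0.0788% to 13.2% in infused libraries. At 14 days it was 0.799% to 9.35% in sham and 0.0431% to 0.934% in infused libraries. The part of these markers and of AY036118 in the results on replication genes was not tested. In bulk tissue more RNA per cell cannot be told apart from more cells of a type.

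Few replication genes passed the test: Mcm6 rose at both times and E2f1 at 14 days. At 7 days 1 of the 37 tested genes was called higher and none lower (limma, adjusted p under 0.05 over all genes tested), where 0.819% of all genes were called, 0.752% higher and 0.0671% lower. Genes called are those of limma unless another tool is named. At 14 days 2 of the 37 were called higher and none lower, beside 4.04% and 2.01% of all genes (6.06% in either direction), so the count at 14 days is near the share among all genes. The median log2 fold change of the 37 genes was 0.18 at 7 days and 0.20 at 14 days, against 0.0017 and 0.034 for all genes. Positive fold changes were found for 31 of the 37 genes at 7 days and 27 of 37 at 14 days, against 50.4% and 55% of all genes. These counts and medians include Mcm10 and Ccne1, the 2 genes with a value of 1 in fewer than 5 sham libraries. Both passed the filter only with infused libraries. At an unadjusted p under 0.05, 8 of 37 were higher and none lower at 7 days, beside 6.2% and 3.08% of all genes (9.28% in all). At 14 days 9 were higher and 2 lower, beside 14.4% and 10.2%. These counts are a description of genes that share the same libraries.

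**Figure D1:**
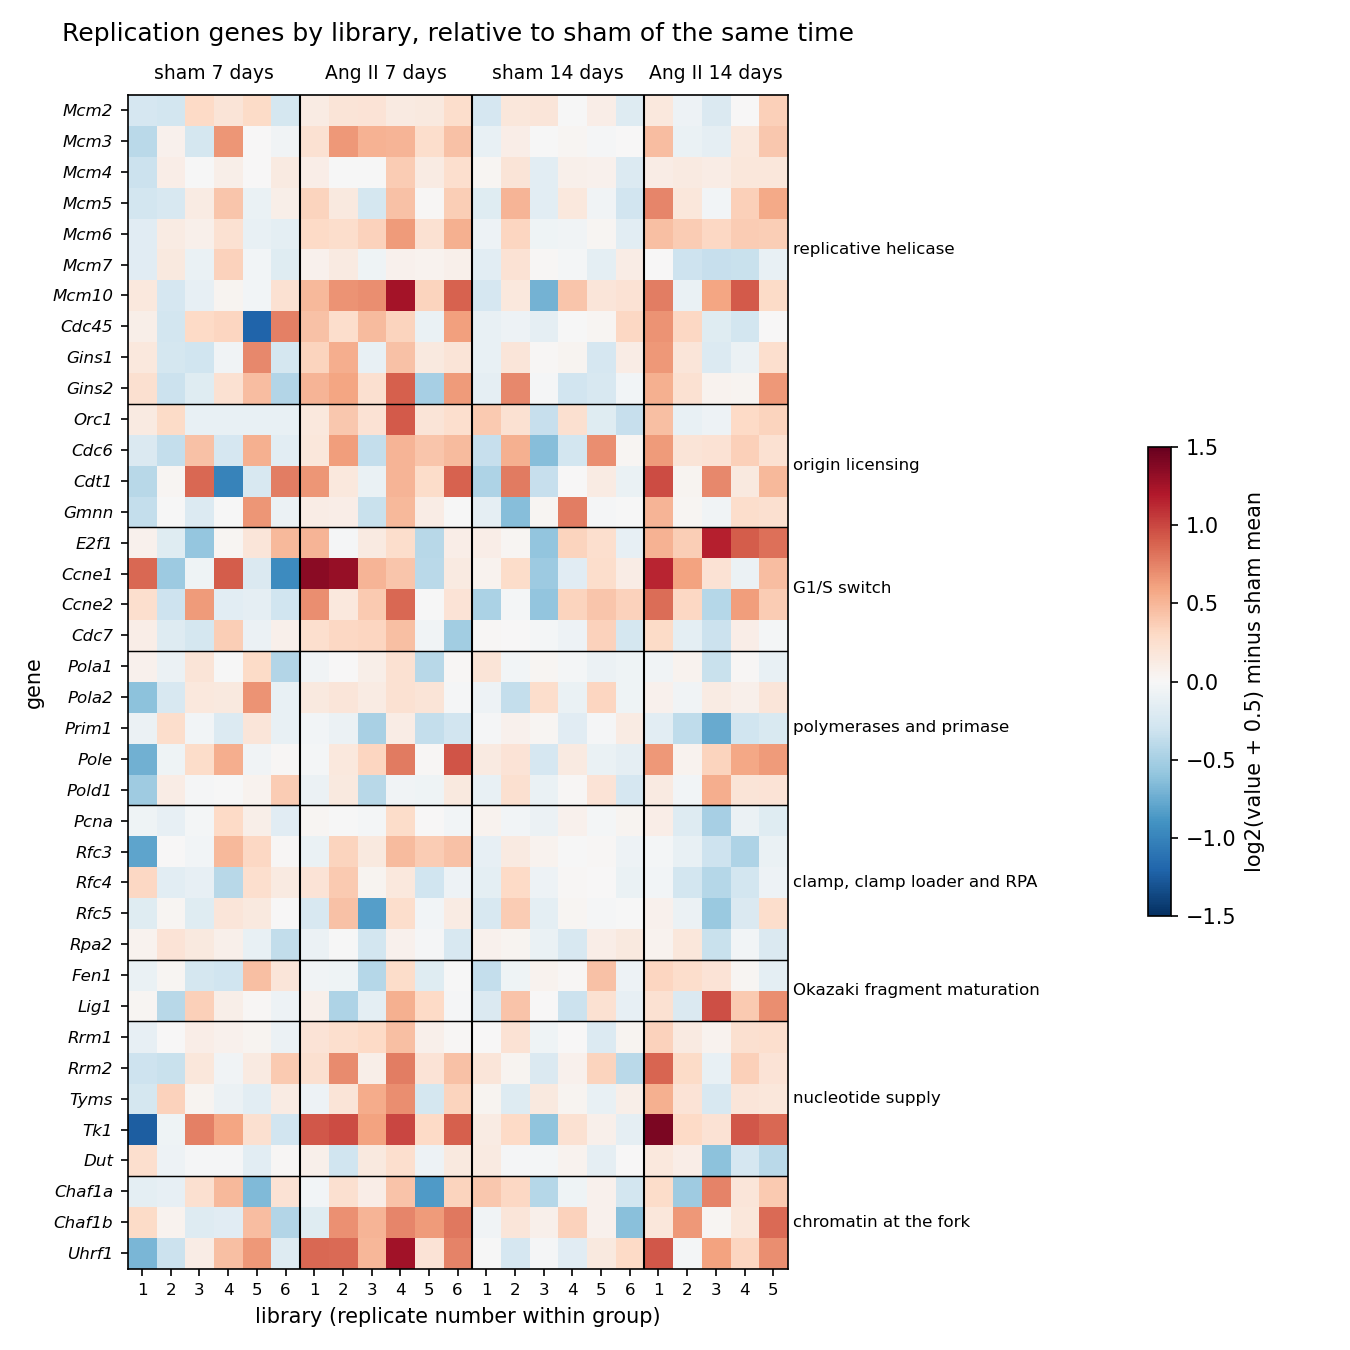
Each cell is 1 gene in 1 library, coloured by log2(value + 0.5) minus the mean of the sham libraries of the same time, with the genes in rows by role and the libraries in columns by group. Infused columns are mostly red for Mcm6, Mcm10, Tk1 and Uhrf1 and mixed or pale for the clamp, clamp loader and RPA genes.

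The ring of the helicase has 1 copy of each of Mcm2 to Mcm7, and 1 of these subunits, Mcm6, was called at both times. Mcm6 (chr1:128331590-128359664, minus strand, mm10) had values of 18.4, 22.7, 21.9, 24.4, 19.2 and 18.7 in the sham libraries at 7 days. The infused libraries at 7 days had 25.7, 25.1, 26.6, 32.5, 24.4 and 30.3. All 6 infused libraries stood above all 6 sham libraries, the closest pair being 24.36 in sham and 24.44 in Ang II. At 14 days Mcm6 had 24.3, 32.2, 24.6, 24.8, 26.2 and 23.01 in sham and 35.4, 33.7, 32.0, 33.7 and 33.4 in infused libraries. Here 1 sham library, replicate 2 at 32.16, reached into the infused range, whose lowest value was 31.98. The log2 fold change of Mcm6 was 0.39 ± 0.090 (SE; limma, adjusted p = 0.035) at 7 days and 0.38 ± 0.094 (adjusted p = 0.0194) at 14 days.

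The call of Mcm6 at 7 days was lost when any of 8 single libraries was left out (sham replicates 1, 3, 5 and 6 and Ang II replicates 1, 3, 4 and 6), with fold changes of 0.34 to 0.43 and adjusted p of 0.0172 to 0.117 over the 12 refits. At 14 days it was called in all 11 refits that left out 1 library (0.35 to 0.44), and it was lost with upper-quartile scaling (adjusted p = 0.0525). The libraries carry animal numbers, whose first 2 digits were taken here as series. The labels do not define such series or say that they are batches. Within series 27 the difference of Mcm6 was 0.24 (3 infused, 4 sham) and within series 28 it was 0.59 (3 and 2) at 7 days. Within series 26 it was 0.35 at 14 days (3 and 4), while series 30 held infused libraries only. With series as a term in the model no replication gene was called at either time.

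The other ring subunits were not called. Mcm3 had a median of 8.30 (6.25 to 13.6) in sham and 11.9 (9.92 to 13.5) in infused libraries at 7 days. Its log2 fold change was 0.43 with an SE of 0.14 (limma, adjusted p = 0.194). The highest sham value, 13.57 in replicate 4, rested on 73 reads, where the group had 26 to 166. Over the 12 refits that left out 1 library, the fold change was 0.35 to 0.57 and the limma adjusted p 0.0179 to 0.397. Mcm3 was called in 1 of these, the refit without that sham library (0.57). Mcm2, Mcm4 and Mcm5 had 0.18, 0.14 and 0.17 at 7 days and 0.04, 0.14 and 0.36 at 14 days. Mcm7 had 0.06 ± 0.097 at 7 days and -0.22 ± 0.10 (adjusted p = 0.184) at 14 days, with 10.3 to 13.3 in infused and 11.8 to 15.5 in sham libraries. Exons of Mcm7 overlap Cops6 and Ap4m1 on the other strand and hold the microRNA genes Mir25 and Mir93, and since the strand setting of the counting is not given in the sources used here its values are uncertain. The same limit holds for Fen1, Lig1, Rfc4, Rfc5, Ccne2, Cdc45, Gins2, Pole, Tk1, Chaf1a and Orc1, so for 12 of the 38 genes in all, whose exons overlap a gene on the other strand.

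Per kilobase of merged exon, the mean level of the 6 subunits in sham at 7 days ranged from 1.27 for Mcm2 to 4.47 for Mcm6. Mcm4 had 3.37, Mcm7 3.07, Mcm3 2.32 and Mcm5 1.70 on the same scale. Mcm6 thus had the highest level per length of the ring in every group. At 14 days it had 5.54 in sham and 7.21 in infused libraries, where Mcm2 had 1.31.

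Mcm10, which stabilises the active helicase, was at the floor of the measurement. Its values were 0.21 to 0.49 in sham libraries at 7 days, on 1 to 5 reads each, and 0.57 to 1.51 in infused libraries, on 5 to 29 reads. The groups did not overlap, as was the case in the higher direction for 2 of the 37 genes (Mcm6 and Mcm10) and for 1.08% of all genes at 7 days. The log2 fold change was 0.72 ± 0.21 (SE; limma, adjusted p = 0.144) at 7 days and 0.49 ± 0.22 (adjusted p = 0.175) at 14 days. At 14 days the groups overlapped, with values of 0.43 to 1.38 in infused libraries (10 to 30 reads) and 0.11 to 0.83 in sham (2 to 11 reads). Only infused libraries reached a value of 1 for Mcm10 (2 at 7 days and 3 at 14 days), so the gene passed the filter only through the infused groups.

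Cdc45 and the GINS subunits Gins1 and Gins2 join the ring to form the active helicase. Their log2 fold changes were 0.34, 0.26 and 0.39 at 7 days and 0.11, 0.16 and 0.30 at 14 days, with adjusted p of 0.443 to 0.819. Infused and sham libraries overlapped for all 3 genes at both times. In Cdc45, sham libraries at 7 days spread from 0.33 (1 read) to 2.71, a wider range than the 1.26 to 2.40 of the infused libraries. Over the 10 helicase genes the median was 0.30 at 7 days and 0.16 at 14 days.

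Among origin licensing genes, Orc1 was at the detection floor, while Cdc6, Cdt1 and Gmnn reached a value of 1 in 21, 20 and 22 libraries. Orc1, the large ATP-binding subunit of the origin recognition complex, had 1, 3, 0, 0, 0 and 0 reads in sham and 1, 4, 1, 10, 1 and 3 in infused libraries at 7 days. At 14 days it had 4, 2, 0, 3, 1 and 0 reads in sham and 7, 2, 2, 6 and 8 in infused libraries. Infused libraries were also deeper on average, and at these counts no difference in Orc1 could be judged. Cdc6 and Cdt1, which load the ring, had log2 fold changes of 0.31 ± 0.22 and 0.40 ± 0.28 (SE) at 7 days and 0.33 ± 0.24 and 0.48 ± 0.29 at 14 days. Gmnn, which encodes the Cdt1 inhibitor geminin, had 0.08 ± 0.20 and 0.20 ± 0.21, and none of the 3 was called at either time.

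At the switch from G1 to S phase, E2f1 was called at 14 days. E2f1 (chr2:154559407-154569892, minus strand, mm10) encodes a transcription factor that drives replication genes. It had 0.92, 0.85, 0.38, 1.17, 1.08 and 0.72 in sham at 14 days, on 7 to 19 reads, and 1.41, 1.20, 2.46, 1.98 and 1.84 in infused libraries, on 27 to 49 reads. All 5 infused libraries stood above all 6 sham libraries, and E2f1 was the 1 gene of the 37 without overlap in the higher direction at 14 days, where 2.36% of all genes were. None of the 37 stood wholly below sham at 14 days, as 1.29% of all genes did. The log2 fold change was 0.76 ± 0.21 (SE; limma, adjusted p = 0.0363), and edgeR's quasi-likelihood test on the reads gave 1.07 (adjusted p = 0.0231).

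At 7 days E2f1 had 0.56 to 1.72 in sham and 0.69 to 1.77 in infused libraries, which overlapped over nearly the whole range (0.10 ± 0.20 SE; limma, adjusted p = 0.943). Within series 27 its difference at 7 days was 0.38 and within series 28 it was -0.35, and within series 26 at 14 days it was 0.72. The response of E2f1 was 0.66 ± 0.29 higher at 14 than at 7 days, which did not pass the test over all genes (unadjusted p = 0.0347, limma adjusted p = 0.517). Its call at 14 days was lost when any of 6 libraries was left out (sham replicates 2, 3 and 6 and Ang II replicates 3, 4 and 5), with fold changes of 0.64 to 0.85 over the 11 refits. Of all 21 alternatives, which include these refits and series as a term, 9 lost the call of E2f1.

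Ccne1 and Ccne2, the E cyclins that activate CDK2 at the start of S phase, had log2 fold changes of 0.55 ± 0.32 and 0.38 ± 0.23 (SE) at 7 days and 0.47 ± 0.34 and 0.35 ± 0.24 at 14 days. Ccne1 ran from 0 to 1.30 in sham and 0.23 to 1.97 in infused libraries at 7 days, and its groups overlapped at both times. It reached a value of 1 in 2 sham and 5 infused libraries, so it passed the filter only with the infused groups. Cdc7, the kinase that phosphorylates the loaded ring, had 0.13 and -0.02. None of the 3 was called at either time.

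**Figure D2:**
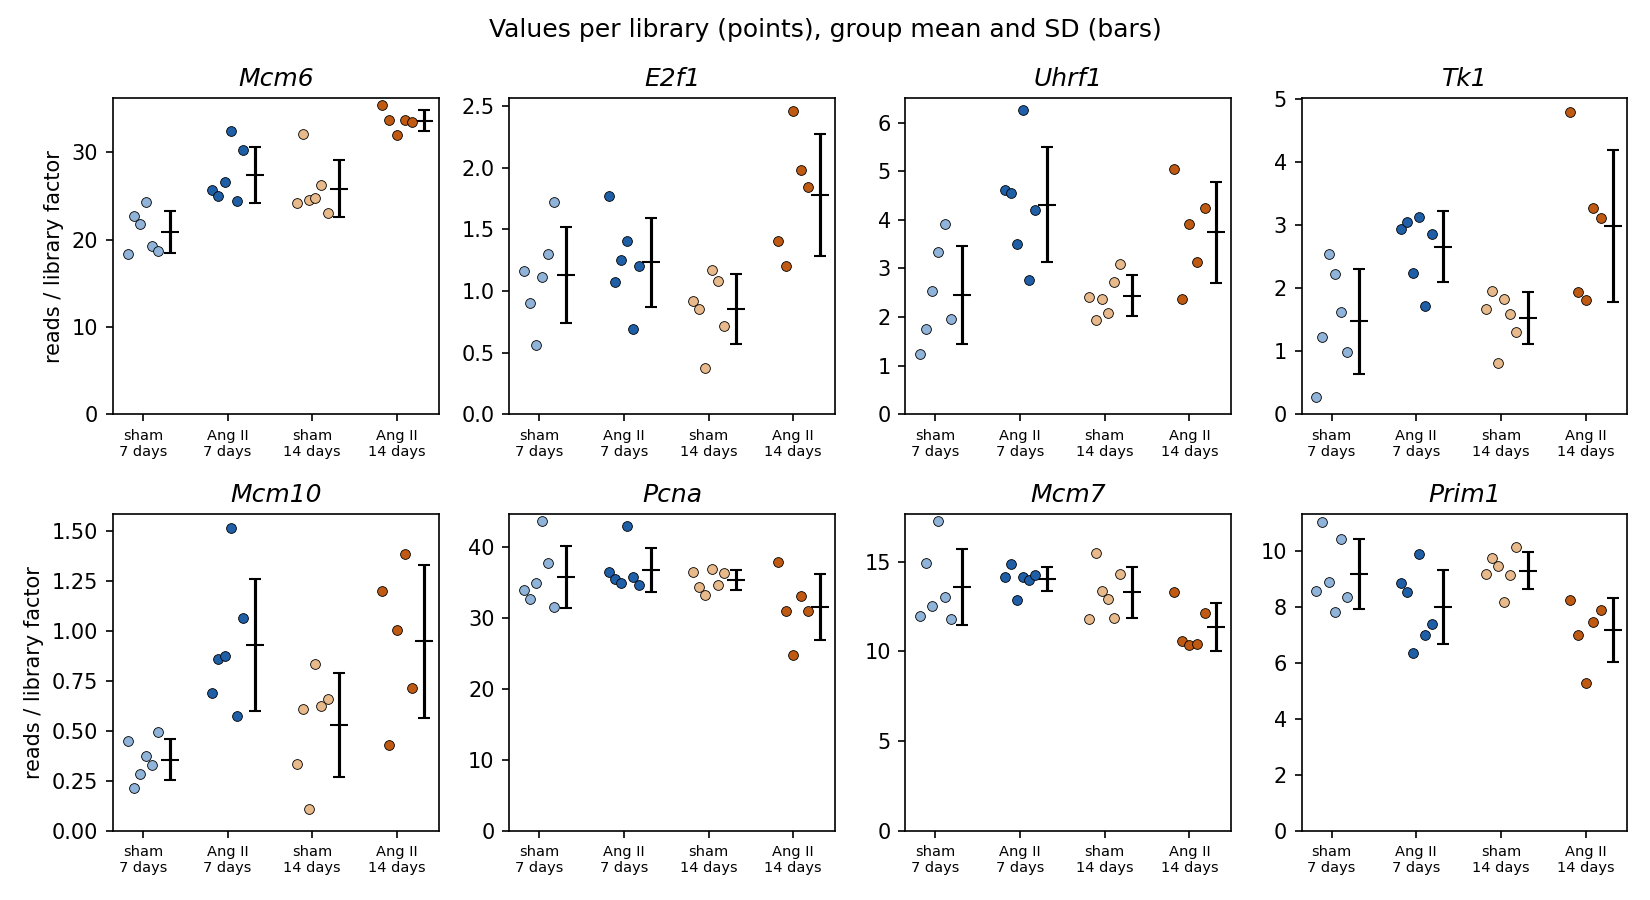
Points are libraries and bars the group mean with its SD, on a linear axis of reads divided by the library factor, for 8 genes in the 4 groups. Mcm6 in the infused libraries at 14 days lies between 31.98 and 35.38, while Pcna runs over overlapping ranges in all 4 groups.

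Polymerase genes had small fold changes of both signs. Pola1 and Pola2 encode the catalytic and the B subunit of DNA polymerase alpha, which starts each new strand, and had -0.02 and 0.14 at 7 days and -0.08 and 0.08 at 14 days. Prim1, which encodes the catalytic primase subunit that makes the RNA primer, had the lowest fold change of the 37 at both times. It had a median of 8.73 (7.81 to 11.03) in sham and 7.96 (6.37 to 9.91) in infused libraries at 7 days. At 14 days the medians were 9.31 (8.17 to 10.1) and 7.47 (5.27 to 8.23), and 4 of the 5 infused libraries stood below all sham libraries. The log2 fold change was -0.19 ± 0.12 at 7 days (SE; limma, adjusted p = 0.693) and -0.37 ± 0.12 at 14 days (adjusted p = 0.0728), and DESeq2 called it lower at 14 days (-0.40, adjusted p = 0.0302).

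Pole and Pold1 encode the catalytic subunits of the polymerases of the leading and the lagging strand. Pole had a median of 3.58 (2.86 to 4.14) in sham and 5.49 (3.65 to 5.78) in infused libraries at 14 days, with an increase of 0.45 ± 0.20 on the log2 scale (SE; adjusted p = 0.168 by limma). At 7 days it had 0.36 ± 0.19. Pold1 had -0.06 ± 0.14 and 0.21 ± 0.14. Neither gene was called at either time.

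Pcna, the sliding clamp that holds the polymerase on DNA, had the highest level per length of the 38 genes, 14.9 per kilobase in sham at 7 days. It had a median value of 34.5 (31.5 to 43.7) in sham and 35.7 (34.7 to 43.0) in infused libraries at 7 days. At 14 days the medians were 35.5 (33.2 to 36.9) and 31.0 (24.8 to 37.9). The log2 fold changes were 0.04 ± 0.089 (SE; limma, adjusted p = 0.945) and -0.17 ± 0.093 (adjusted p = 0.250). The processed pseudogene Pcna-ps2 had 51 reads over all 23 libraries and Pcna-ps1 none.

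The clamp loader genes Rfc3, Rfc4 and Rfc5 had 0.28, 0.07 and -0.05 at 7 days and -0.20, -0.22 and -0.11 at 14 days. Rpa2, a subunit of the protein that coats single-stranded DNA, had -0.09 and -0.07. At 14 days all 5 genes of the clamp, its loader and RPA had negative fold changes, with a median of -0.17 and adjusted p of 0.250 to 0.748, and none was called. Rfc3 had a response 0.48 ± 0.23 lower at 14 than at 7 days (SE; unadjusted p = 0.0459, limma adjusted p = 0.528), which did not pass.

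Fen1, the flap nuclease, and Lig1, DNA ligase I, finish the Okazaki fragments of the lagging strand. Fen1 had -0.08 ± 0.15 and 0.14 ± 0.15 (SE) at 7 and 14 days. Lig1 had 0.05 ± 0.19 at 7 days and 0.41 ± 0.20 (limma adjusted p = 0.199) at 14 days, where infused libraries ran from 3.09 to 7.63 and sham libraries from 2.83 to 5.12.

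Of the enzymes that supply deoxynucleotides, Tk1 had the largest fold change. Tk1 encodes the cytosolic thymidine kinase of the salvage route. It had a median of 1.43 (0.27 to 2.54) in sham and 2.91 (1.72 to 3.13) in infused libraries at 7 days, on 3 to 62 reads. At 14 days the medians were 1.63 (0.81 to 1.95) and 3.12 (1.81 to 4.79). Groups overlapped at both times, through sham replicates 3 and 4 at 7 days and Ang II replicates 2 and 3 at 14 days. The log2 fold change was 0.79 ± 0.27 (SE; limma, adjusted p = 0.241) and 0.74 ± 0.28 (adjusted p = 0.106), and DESeq2 called it at 14 days (0.96, adjusted p = 0.0381).

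Rrm1 and Rrm2 encode the large and the small subunit of ribonucleotide reductase, which makes deoxynucleotides from ribonucleotides. Rrm1 had 18.1 ± 1.14 in sham and 21.2 ± 2.37 in infused libraries at 7 days (SD, n = 6 each), and 19.95 ± 1.96 (n = 6) and 23.01 ± 1.82 (n = 5) at 14 days. Its log2 fold change was 0.21 ± 0.083 and 0.20 ± 0.087 (SE; limma, adjusted p = 0.348 and 0.147). Rrm2, whose protein is made in S phase, had 0.41 ± 0.18 and 0.32 ± 0.19 (adjusted p = 0.449 and 0.290). Tyms, thymidylate synthase, had 0.24 and 0.17, and Dut, the dUTPase that keeps uracil out of DNA, had 0.04 and -0.20. None of the 5 genes was called by limma or edgeR at either time, and DESeq2 called Tk1 at 14 days.

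Among the genes that rebuild chromatin behind the fork, Uhrf1 had the largest fold change. Uhrf1 recognises hemimethylated CpG sites and brings the maintenance methyltransferase to them. It had a median of 2.25 (1.25 to 3.91) in sham and 4.38 (2.75 to 6.26) in infused libraries at 7 days, and 2.40 (1.95 to 3.10) and 3.92 (2.36 to 5.05) at 14 days. The log2 fold change was 0.74 ± 0.21 (SE; limma, adjusted p = 0.115) and 0.50 ± 0.22 (adjusted p = 0.161). It was called at 7 days by DESeq2 (0.94, adjusted p = 0.0336) and by limma without sham replicate 5 (0.87, adjusted p = 0.0453). Chaf1a and Chaf1b, subunits of the histone chaperone CAF-1, had 0.03 and 0.53 at 7 days and 0.21 and 0.37 at 14 days.

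**Figure D3:**
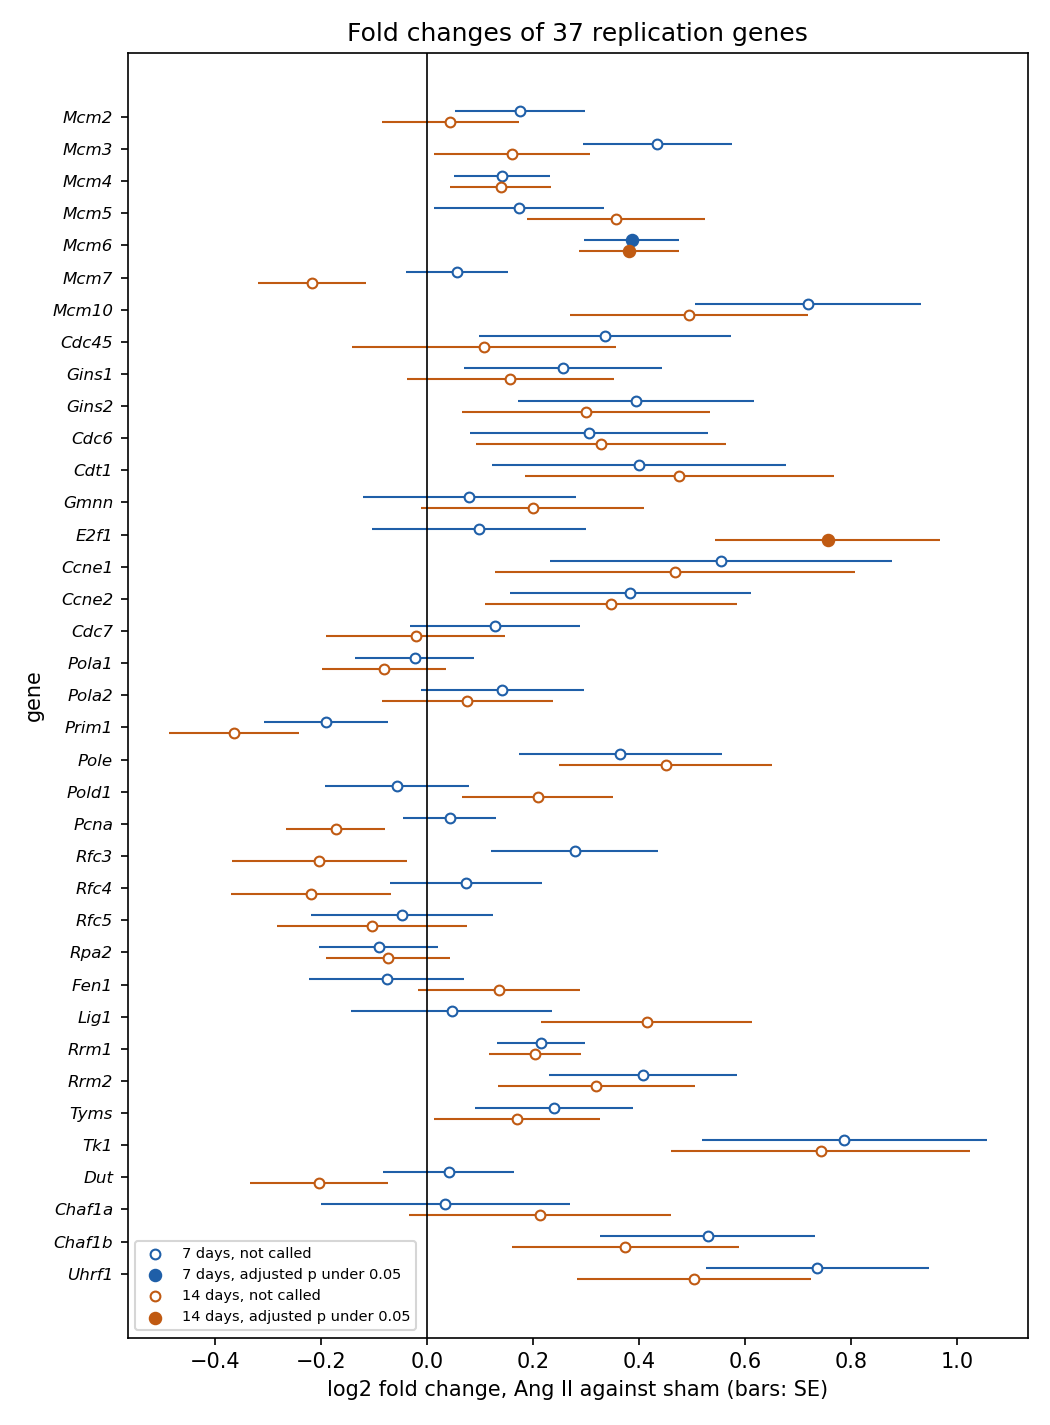
Points are log2 fold changes of Ang II against sham with their SE for the 37 genes tested, at 7 days in blue and 14 days in orange, filled where the adjusted p was under 0.05. Mcm6 is filled at both times and E2f1 at 14 days, and the clamp genes, Prim1 and Mcm7 lie left of 0 at 14 days.

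Between the 2 times the responses were not told apart. No gene of the whole table passed the test of the difference of the responses (limma, and edgeR likewise), where 9.37% of all genes had an unadjusted p under 0.05 and 2 of the 37 did. Between sham at 14 and 7 days no gene was called by limma either, with 7.57% of all genes at an unadjusted p under 0.05 and 1 of the 37. The 1 gene was Mcm6, which was 0.30 ± 0.090 higher in sham at 14 than at 7 days (SE; log2 scale, unadjusted p = 0.00261, limma adjusted p = 0.551), not far below its fold changes with Ang II of 0.39 and 0.38. The 7-day and 14-day comparisons share no libraries, but both come from 1 fit of all libraries and share its estimate of the spread.

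Genes around the same pathway were taken from lists made with earlier results of these data known. Of 38 other replication factors tested, Top2a, which encodes topoisomerase II alpha, was called at 7 days (log2 fold change 1.13 ± 0.19) and at 14 days (0.78 ± 0.20). Rnaseh2b, a subunit of ribonuclease H2, was called at 14 days (0.46). The median of that list was 0.05 and 0.08, below the 0.18 and 0.20 of the 37 genes. No gene of it was called lower by limma or edgeR, and DESeq2 called 1 lower at 14 days. Of 24 recombination and mismatch repair genes, Brca1 was called at 7 days (0.66) and its partner Bard1 at 14 days (0.65), with medians of 0.22 and 0.20. Among 27 genes of D cyclins, CDKs, the RB family and E2F factors, the S and G2 phase cyclin gene Ccna2 was called at both times (1.27 and 0.93). E2f2 (0.86) and Rbl2 (0.25) were called at 14 days. Called higher at 7 and 14 days were 2.63% and 5.26% of the other replication factors and 4.17% and 4.17% of the recombination and repair genes. For the cyclin, CDK, RB and E2F list the shares were 3.7% and 11.1%. Of all genes 0.752% and 4.04% were called higher, so the first 2 lists are near that share at 14 days. Ccnd1, the D cyclin that responds to growth factors, had -0.02 and -0.12 and was not called. Calls of Rnaseh2b, Brca1, Bard1, Ccna2 at 14 days, E2f2 and Rbl2 were each lost in 7 to 13 of the 21 or 22 alternatives, which include leaving out single libraries. The 14-day call of Top2a was lost in 4 of 21, with series as a term (adjusted p = 0.23) and without sham replicate 3, Ang II replicate 4 or Ang II replicate 5 (adjusted p = 0.0513 to 0.0608). Of 17 tested CDK inhibitors and quiescence genes none was called by limma, edgeR or DESeq2, and at an unadjusted p under 0.05 by limma 2 were lower at 7 days and 1 was higher at 14 days, with medians of 0.02 and 0.00. Cdkn1b, the inhibitor p27, had -0.19 and -0.04. For the inhibitor gene Cdkn1a the mean was 36.4 ± 7.83 in sham and 40.4 ± 8.18 in infused libraries at 7 days (SD, n = 6 each). At 14 days the means of Cdkn1a were 21.6 ± 9.16 (n = 6) and 14.5 ± 5.97 (n = 5), with overlapping ranges at both times. Of 24 other S phase chromatin and nucleotide genes none was called by limma or edgeR and 1 at each time by DESeq2, with medians of 0.04 and -0.01. At an unadjusted p under 0.05 by limma, 4 of these were higher and 1 lower at 7 days, and 6 higher and 0 lower at 14 days.

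Replication-dependent histone genes make mRNAs with no poly(A) tail during S phase, and a total RNA library can hold them. Of 69 listed genes, 49 were tested, and the linker histone gene Hist1h1a was called at 7 days, where it ran from 1.30 to 4.93 in sham and 5.39 to 10.51 in infused libraries (log2 fold change 1.23 ± 0.27, SE; limma adjusted p = 0.0217). Its call was lost in 7 of 22 alternatives. It was not called at 14 days (0.73, adjusted p = 0.110) by limma, and DESeq2 called it there (0.86, adjusted p = 0.0335). No other histone gene was called by limma at either time. The share called was 2.04% at 7 days and 0% at 14 days, beside 0.819% and 6.06% of all genes. The median of the 49 was 0.12 at 7 days and 0.30 at 14 days. These genes are near copies of each other, so that reads can be divided between them.

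Mitosis markers had larger fold changes than most replication genes. Of 19 tested, 10 were called higher at 7 days and 7 at 14 days, beside 0.752% and 4.04% of all genes. Their medians were 1.00 and 0.70, and all 19 had positive fold changes at both times. DESeq2 called 13 at each time, edgeR 10 and 9, and limma with series as a term 9 at 7 days and 0 at 14 days, where Mki67 had 0.74 (adjusted p = 0.222). Mki67, a nuclear protein of cycling cells, went from 11.5 ± 3.21 to 30.7 ± 6.63 at 7 days (SD, n = 6 each) and from 14.4 ± 1.19 (n = 6) to 27.4 ± 7.60 (n = 5) at 14 days. The mean log2 value of the mitosis markers was 0.644 to 1.33 in sham and 1.63 to 2.39 in infused libraries at 7 days, and 1.17 to 1.41 and 1.52 to 2.50 at 14 days, with no overlap at either time. The same mean over the 37 replication genes was 2.06 to 2.33 in sham and 2.22 to 2.68 in infused libraries at 7 days, and 2.14 to 2.43 and 2.31 to 2.70 at 14 days, and it overlapped at both times. The difference between the lists was not tested, and the lists were chosen with earlier results known.

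**Figure D4:**
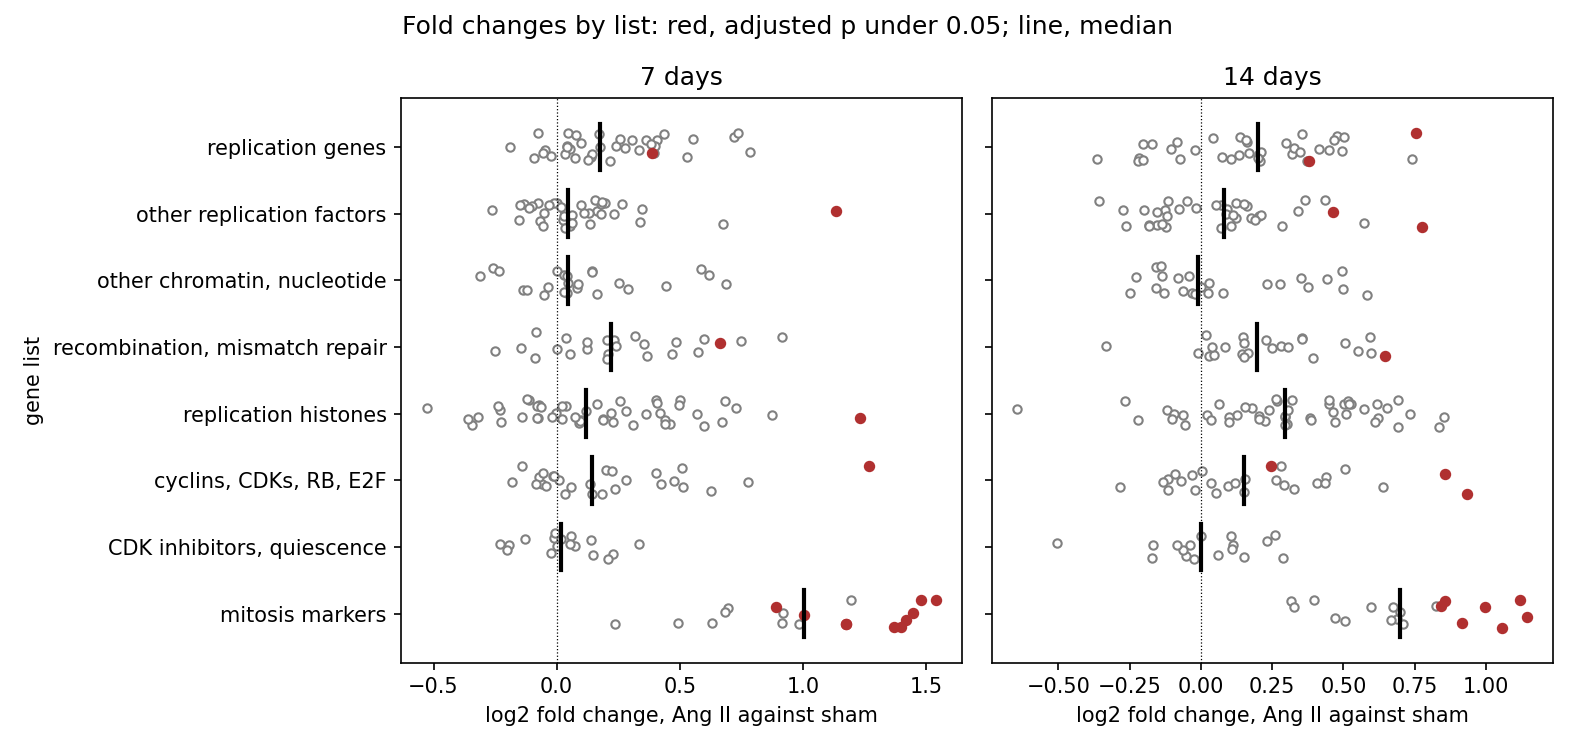
Each point is the log2 fold change of 1 tested gene at 7 days (left) or 14 days (right), by list in rows, filled red where the adjusted p was under 0.05, with a black line at the median of the list. The replication genes centre on 0.18 and 0.20 and the mitosis markers on 1.00 and 0.70.

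Within the groups, fitted slopes of replication genes on Mki67 were mostly positive. In a limma fit with the 4 group means and the log2 value of Mki67, added after the data were seen, 35 of the 37 genes had a positive slope. Of all 14895 genes fitted 7598 did. The median slope was 0.21 against 0.0043 for all genes. At an unadjusted p under 0.05 by limma were 12 of the 37 and 2203 of all genes fitted, in either direction. Tk1 was the 1 gene of the 37 that was called, with a slope of 1.05 ± 0.20 per log2 unit of Mki67 (SE; limma, adjusted p = 0.0254), beside 0.101% of all genes with a called positive slope. In sham libraries at 7 days, Tk1 was lowest (0.27, on 3 reads) in replicate 1, which also had the lowest mitosis mean (0.644). Replicate 6 of that group had the highest mitosis mean (1.33) and the second-lowest Tk1 (0.98, on 4 reads). In infused libraries at 14 days it was highest (4.79) in replicate 1, which had the highest mitosis mean (2.50). Mcm3 (0.47, adjusted p = 0.0925), Pole (0.62, 0.101), Mcm5 (0.48, 0.130) and Uhrf1 (0.60, 0.161) followed and were not called. No gene of the 37 was called without sham replicate 1 at 7 days, sham replicate 4 at 7 days or Ang II replicate 3 at 14 days, and 2 were called without Ang II replicate 5 at 7 days, while the slope of Tk1 stayed between 0.87 and 1.13. All values of a library share its depth and its factor.

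**Figure D5:**
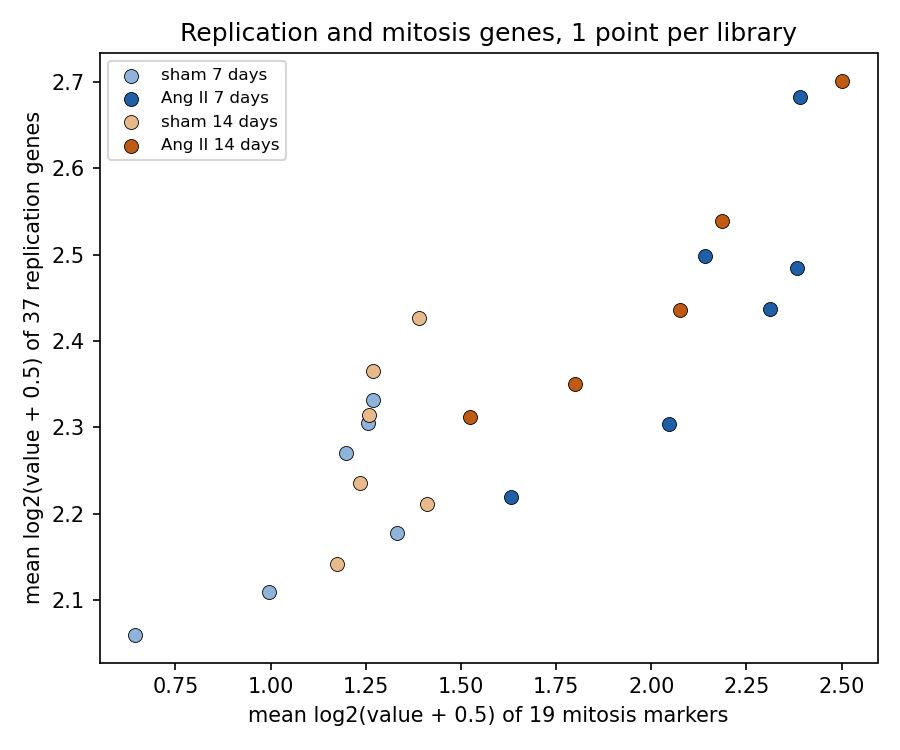
Each point is 1 library, with the mean log2(value + 0.5) of 19 mitosis markers on the x axis and of the 37 replication genes on the y axis, coloured by group. Infused and sham libraries separate along the x axis and overlap along the y axis, where sham libraries reach 2.43 and infused libraries start at 2.22.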

How the data were processed

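Total RNA libraries were made from 500 ng of RNA per artery sample with a stranded kit, per the labels' protocols. The authors deposited 1 table of signal values per gene and library. The submitters' processing notes name STAR 2.3.1, HTSeq 0.5.3p3, edgeR 3.6.8 and the build mm10, among other tools. The annotation, strand setting and normalization of the table are not stated in the sources used here. In each library every value above 0 (460324 in all) was a whole multiple of the smallest, within 0.001 read, for 100% of values, which gave back the reads. The deposited scaling was within 0.1% of TMM factors computed here.

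Fold changes are on the log2(value + 0.5) scale, which understates changes of low genes. One limma 3.58.1 fit (R 4.3.3; trend, robust) had the 4 group means, with Benjamini-Hochberg adjustment over 14896 genes with a value of at least 1 in at least 5 libraries. Run on the recovered reads, edgeR 4.0.16 called 119 genes at 7 days and 1241 at 14 days, and DESeq2 1.42.0 called 212 and 1798, beside 122 and 902 by limma. The limma fit was tested on simulated data. Levels per kilobase and overlaps use GENCODE M21, and promoter sequences are RefSeq's. All 38 genes are accounted for, those called with each library's value, and up to 6 called genes of each other list are named. The genes and lists were chosen with earlier results of these data known. Each animal gave 1 library; p-values measure the spread between these animals.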

Additional observations from a re-analysis of the deposited data

Results flagged for a closer look

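In 14 of 152 groups of libraries (38 genes in 4 groups), 1 library lay far from the others of its group by Dixon's test, where chance gives about 1 in 20. Of the 14, 5 were sham replicate 2 at 14 days: Mcm6 at 32.16 (others 23.01 to 26.24), Gins2 at 2.68 (1.083 to 1.405), Rfc4 at 4.142 (2.917 to 3.333), Rfc5 at 9.016 (5.667 to 6.915) and Cdt1 at 3.046 (1.00 to 1.761), the highest of the group in each case. At 14 days sham replicate 6 was also high for Cdc45 (2.385) and sham replicate 4 for Gmnn (3.416). At 7 days sham replicate 4 was high for Mcm3 (13.57), sham replicate 5 for Gins1 (1.955, 6 reads) and Gmnn (3.258, 10 reads), and sham replicate 1 was low for Mcm4 (9.553). Among infused libraries at 7 days, replicate 4 was high for Pcna (42.97) and Orc1 (0.5214, 10 reads), and replicate 1 was low for Chaf1b (1.277).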

How the results depend on the processing

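Called higher at 7 days were 112 genes, among them 1 replication gene. DESeq2 gave 173 higher and 39 lower genes (10 by limma), with 2 replication genes higher, and series as a term gave 6 lower genes. No replication gene was higher with no filter on low values, upper-quartile scaling, a fit of only the 2 groups compared, or series as a term (0 each). Leaving out 1 library gave 62 to 139 higher genes, 4 to 14 lower genes and 0 to 2 replication genes higher. At 14 days limma gave 602 higher and 300 lower genes, with 2 replication genes higher. DESeq2 gave 1032 and 766, with 3 replication genes higher and 1, Prim1, lower. Only the 2 groups gave 258 and 85, series as a term 14 and 2, no filter 163 lower, and upper-quartile scaling 406 higher and 465 lower. Replication genes higher were 1 with no filter, upper-quartile scaling or only the 2 groups, and 0 with series as a term. Leaving out 1 library gave 283 to 1410 higher, 76 to 783 lower and 1 to 2 replication genes higher. In the slope on Mki67, 0 to 2 replication genes were called.

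Fold changes near 0 changed sign. Mcm2 at 14 days had -0.0084 with upper-quartile scaling and -0.0696 with series as a term, where Rpa2 had 0.0232. Rfc5 at 7 days had 0.03 by edgeR and 0.0329 by DESeq2. With 1 library left out, the 7-day ranges were -0.0036 to 0.1006 for Pcna, -0.0098 to 0.1478 for Rfc4, -0.1457 to 0.1081 for Rfc5, -0.1131 to 0.0554 for Pola1, -0.163 to 0.019 for Pold1, -0.1469 to 0.0143 for Fen1, -0.0503 to 0.1482 for Lig1, -0.0984 to 0.2101 for Chaf1a, -0.0018 to 0.1081 for Dut, -0.0179 to 0.2008 for E2f1 and -0.0023 to 0.2128 for Gmnn. The 14-day ranges were -0.0331 to 0.109 for Mcm2, -0.035 to 0.2028 for Cdc45, -0.1977 to 0.0067 for Rfc5 and -0.1003 to 0.0542 for Cdc7. The causes were not tested. No paired analysis was possible because the groups share no replicate numbers in the labels, whose numbers name animals and state no pairs; series as a term uses only their first digits. Depth limits Orc1 and Mcm10 most, with 0 to 10 and 1 to 30 reads per library.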
